A study of Mus musculus with 2 samples.

Results

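Respiratory complex I is the first enzyme of the mitochondrial electron transport chain, and its transcripts were measured in single cells of mouse pancreatic islets as 45 genes of the 27998 in the gene table. The members were chosen by symbol alone: 38 nuclear genes whose names begin Ndufa, Ndufb, Ndufc, Ndufs, Ndufv or Ndufab, and 7 genes of mitochondrial DNA whose names begin mt-Nd. The assembly factors named Ndufaf were left out. Each of the 45 passed the minimum of 10 unique molecular identifiers (UMIs, tags that count single RNA molecules) over both libraries. The lowest totals were 594 UMIs for mt-Nd6 and 603 for Ndufa4l2.

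The 2 droplet libraries came from dissociated islets of C57BL/6 animals aged 70 postnatal days (10 weeks), 1 from wild type animals and 1 from animals labelled βTG miR-503, a transgene for the microRNA miR-503 that is specific to beta cells. The sources used here give neither the promoter of the transgene nor how many lines or mice lie behind each library. The series title ties the work to insulin granules, miR-503 in exosomes, insulin resistance and beta-cell senescence. Each genotype is 1 library, so differences could not be checked against replicates or tested, and all 95% intervals cover counting error only. Cells vary more than such intervals show, and the genotype cannot be told apart from any other difference between the 2 libraries.

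Complex I takes electrons from NADH, passes them to ubiquinone and pumps protons across the inner mitochondrial membrane. Its catalytic core is built from subunits of both genomes: the mt-Nd genes encode the membrane-embedded part that pumps protons, and nuclear core genes encode the arm in the matrix that oxidises NADH and carries the iron-sulfur clusters. The remaining nuclear genes encode accessory subunits that stabilise either arm. In beta cells the respiratory chain couples glucose oxidation to insulin secretion through ATP.

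Cells were placed in a class by their hormone transcripts: beta cells with at least 25% of UMIs from Ins1 and Ins2, alpha cells with at least 3% from Gcg, delta cells with at least 2% from Sst and gamma cells with at least 3% from Ppy. A cell had to meet exactly 1 of these rules, which left 3197 wild type and 2621 transgenic beta cells, 397 and 584 alpha cells, 76 and 99 delta cells, and 116 and 102 gamma cells. Another 231 wild type and 357 transgenic cells met more than 1 rule, most of them among alpha, delta and gamma, and 322 and 214 met none. The delta rule alone or with others was met by 196 wild type and 344 transgenic cells, and the gamma rule by 297 and 380. The delta and gamma classes are thus a minority of the cells that met their rule. Ucn3, a beta-cell marker outside the rule, stood at 323 and 293 CPM (counts scaled to a common library size) in beta cells against 27.1 and 19.9 in alpha cells. Mafa, a beta-cell transcription factor, was near 0 in beta cells at 0.146 and 0.218 CPM. The stromal and ductal lists stayed at or under 12.7 CPM in sum in all classes, while the 4 acinar markers summed to 19.7 CPM in wild type and 74.9 CPM in transgenic beta cells. In beta cells the 4 macrophage markers summed to 126 and 175 CPM, mostly Cd74 and C1qa, with Ptprc at 0.455 and 2.16. The B cell markers summed to 81.1 and 93.6 CPM, almost all Cd79a (80.9 and 91.7), with Ms4a1 at 0.195 and 1.90. Cd79a stood at 13.7 and 12.9 CPM in alpha cells. The sums thus rest on few markers, and whether such cells had a part in the results was not tested. Of the barcodes 25 occurred in both libraries. Xist, an RNA of female cells, was detected in 0.250% of the wild type beta cells and in 13.2% of the transgenic ones. Of the genes searched for the transgene's product only Gm28730, which lies beside Mir503, was in the gene table, with 0 wild type UMIs and 1 transgenic UMI, so the counts did not check the genotype labels.

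The 2 genomes carry their complex I genes differently, and the sequences show how. The mt-Nd4l and mt-Nd4 reading frames overlap on mitochondrial DNA at chrM:10167-10173 of GRCm38, and both are read from a single messenger RNA. The lines below give the last 30 bases of mt-Nd4l and the first 30 bases of mt-Nd4 on the plus strand, with the shared 7 bases in capitals. A read from this stretch can belong to either gene. How such reads were counted was not examined, and their part in the values of mt-Nd4l below was not tested. The genes mt-Nd5 and mt-Nd6 also overlap, by 14 bases on opposite strands.
mt-Nd4l: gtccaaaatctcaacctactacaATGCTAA
mt-Nd4: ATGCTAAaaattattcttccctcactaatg

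The nuclear members are spread over the chromosomes, each with its own promoter. RefSeq promoter windows of GRCm38.p6, from 250 bases before to 50 after the start, were at hand for 33 of the 38 nuclear genes. The binding motif of nuclear respiratory factor 1 (NRF1), a transcription factor known for genes of the respiratory chain, was searched on both strands as GCGCA, any 1 base, then GCGC. It was found in 7 of the 33 windows (21.2%) and in 5.19% of the 27025 genes with a window. The ETS core CCGGAA, as bound by GABPA, was found in 10 of 33 (30.3%) against 16.7%, and the YY1 core AAGATGG in 7 of 33 (21.2%) against 7.28%. The motif of 1 further gene, Ndufa6, lay outside the stretch shown. The lines below give the 100 bases before the start of the other NRF1-motif genes, 5′ to 3′ on the strand of the gene, with the motif in capitals. They are shown as an example of a feature that several nuclear members share and that the choice by symbol did not use. The genes with a window were not matched to the members for expression or base content.
Ndufa8: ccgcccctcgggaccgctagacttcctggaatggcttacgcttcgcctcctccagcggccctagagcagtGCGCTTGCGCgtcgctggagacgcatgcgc
Ndufs5: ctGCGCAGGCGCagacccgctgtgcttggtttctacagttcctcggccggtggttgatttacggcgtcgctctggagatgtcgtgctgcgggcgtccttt
Ndufa5: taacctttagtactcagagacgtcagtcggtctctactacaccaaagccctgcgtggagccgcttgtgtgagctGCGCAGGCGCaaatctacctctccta
Ndufs6: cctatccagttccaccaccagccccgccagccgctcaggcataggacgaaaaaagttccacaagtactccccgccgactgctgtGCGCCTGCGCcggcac
Ndufb4: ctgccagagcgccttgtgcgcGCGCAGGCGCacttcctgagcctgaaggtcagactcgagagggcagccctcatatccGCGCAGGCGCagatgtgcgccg
Ndufa11: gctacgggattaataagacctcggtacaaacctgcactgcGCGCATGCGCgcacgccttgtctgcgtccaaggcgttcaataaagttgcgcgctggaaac
These stretches lie at chr2:36049339-36049438 (minus strand, Ndufa8), chr4:123718187-123718286 (minus strand, Ndufs5), chr6:24527691-24527790 (minus strand, Ndufa5), chr13:73328483-73328582 (minus strand, Ndufs6), chr16:37654369-37654468 (minus strand, Ndufb4) and chr17:56717662-56717761 (plus strand, Ndufa11). A match describes letters and not a bound site.

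In beta cells the nuclear and mitochondrial sets of complex I stood in opposite order between the libraries. Levels are UMIs summed over the cells of a class and scaled by TMM factors to CPM. The 38 nuclear genes together stood at 5317 CPM in wild type and 6006 CPM in transgenic beta cells, a log2 difference of 0.18 (95% counting interval 0.17 to 0.18). The 7 mt-Nd genes stood at 8298 and 6943 CPM, a log2 difference of −0.26 (−0.26 to −0.25). The transgenic library was thus the higher for the nuclear and the lower for the mitochondrial genes.

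The other 3 classes showed smaller differences with the same signs. The nuclear sum stood at 5280 and 5325 CPM in alpha cells (log2 0.01, −0.01 to 0.03), at 4290 and 4460 CPM in delta cells (0.06, 0.00 to 0.11) and at 4392 and 4558 CPM in gamma cells (0.05, 0.01 to 0.09). The alpha interval spanned 0. The mt-Nd sum stood at 5686 and 5417 CPM in alpha cells (−0.07, −0.09 to −0.05), at 3497 and 3196 CPM in delta cells (−0.13, −0.19 to −0.07) and at 5282 and 4833 CPM in gamma cells (−0.13, −0.17 to −0.09). The nuclear sign depended on the scaling: per total UMIs, where insulin itself fills 50.9% and 60.2% of the beta sums, it was −0.15 in beta and −0.17 in gamma cells, and under that scaling the all-gene median itself shifted by −0.32 and −0.23. The mt-Nd sum was lower in the transgenic library under each of the 5 scalings tried. Insulin filled 3.37% and 2.96% of the alpha sums, 5.99% and 3.58% of the delta sums and 6.38% and 4.15% of the gamma sums, wild type first. Iapp, from the list of beta-cell markers, stood at 8700 and 6846 CPM in alpha and 18663 and 19008 CPM in delta cells. In gamma cells it stood at 29423 and 15177 CPM. Whether beta-cell RNA in these sums had a part in their differences was not tested.

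**Figure D1:**
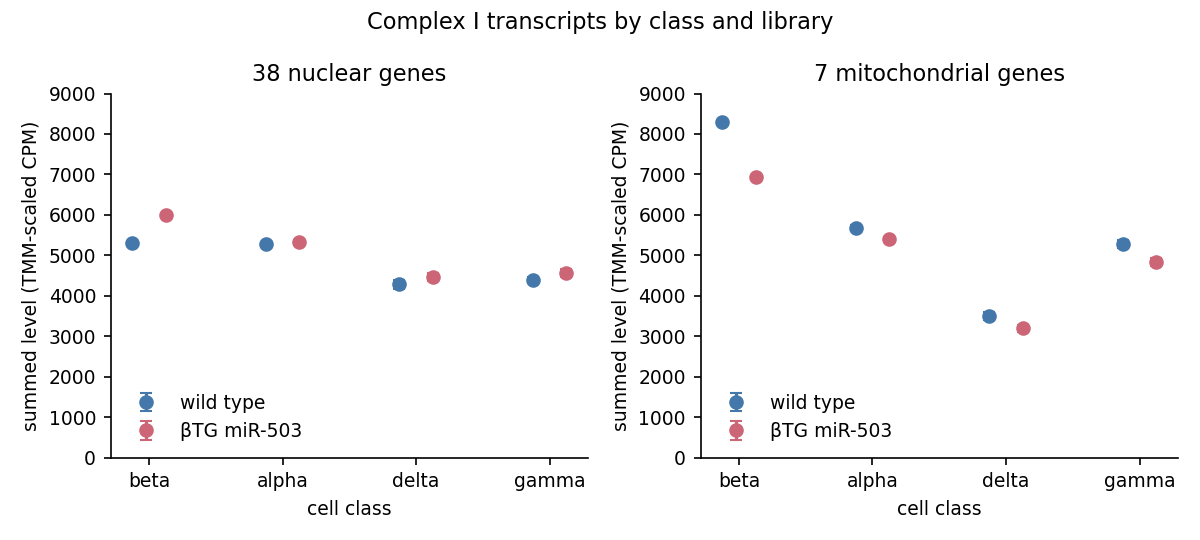
Summed level of the 38 nuclear and the 7 mitochondrial complex I genes (y axis, TMM-scaled CPM, from 0) in the 4 cell classes of the wild type (blue) and βTG miR-503 (red) libraries, with bars for the 95% Poisson counting interval. In beta cells the nuclear point of the transgenic library is the higher (6006 against 5317 CPM) and the mitochondrial point the lower (6943 against 8298 CPM).

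Among the mitochondrial genes, which encode the proton-pumping subunits, 7 of 7 were lower in transgenic beta cells, where 49.4% of the 12895 genes with at least 50 UMIs were lower. Of the 7, 3 were lower by at least 1.2-fold, against 15.8% of all genes. The median of the 7 was −0.23, beside 0.00 over all genes. These 7 are processed from long shared precursor RNAs, apart from mt-Nd6 on the other strand, so they are not independent of each other.

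The gene mt-Nd1, whose subunit sits where the membrane arm meets the matrix arm, stood at 3364 CPM in wild type and 2762 CPM in transgenic beta cells, a log2 difference of −0.28 (−0.29 to −0.27). The antiporter-like subunit genes mt-Nd2 and mt-Nd4 stood at 1654 and 1409 CPM (−0.23) and at 2482 and 2117 CPM (−0.23). The largest of the antiporter-like subunits is encoded by mt-Nd5, at 287 and 221 CPM (−0.37, −0.41 to −0.34). The members mt-Nd1, mt-Nd2 and mt-Nd4 thus lay within a narrow range, and mt-Nd5 below it.

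The small subunit gene mt-Nd3 stood at 427 and 375 CPM (−0.19, −0.22 to −0.16). The lowest ratio was that of mt-Nd4l, at 81.3 and 54.3 CPM (−0.58, −0.65 to −0.51), although it shares its messenger RNA with mt-Nd4 and overlaps it in the bases printed above. The 2 genes of this shared RNA therefore gave different ratios in the counts. The mt-Nd6 gene had 239 and 186 UMIs in beta cells, 3.88 and 3.69 CPM (−0.07, −0.36 to 0.21), and its interval spanned 0.

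The lower mt-Nd level was shared with the rest of the mitochondrial messenger RNAs. The 6 other protein-coding genes of mitochondrial DNA were lower in transgenic beta cells in 6 of 6 cases, against 49.4% of all genes. Their median was −0.27. Per UMI of those 6, beta cells held 0.238 mt-Nd UMIs in the wild type and 0.241 in the transgenic library, a log2 difference of 0.02 (0.01 to 0.02). In delta cells this ratio was 0.241 and 0.237, and in alpha and gamma cells it was 0.306 and 0.320, and 0.234 and 0.248. The median share of all mitochondrial UMIs per beta cell, which includes the mt-Nd genes, was 3.22% in wild type and 2.03% in transgenic cells, and its part in the result was not tested.

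Of the 38 nuclear members 34 were higher and 4 lower in transgenic beta cells, where 50.6% of all genes with at least 50 UMIs were higher. By at least 1.2-fold 12 were higher and 2 lower, against 17.9% and 15.8% of all genes. Since complex I transcripts are abundant, genes with at least 1000 UMIs in beta cells are a closer background: 48.6% of them were higher, 51.4% lower, 11.2% higher by at least 1.2-fold and 11.6% lower by that fold. The median over the nuclear members was 0.17. Per total UMIs the count turned to 10 higher and 28 lower, with a median of −0.16, and it was 34 and 4 under each of the other 4 scalings.

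**Figure D2:**
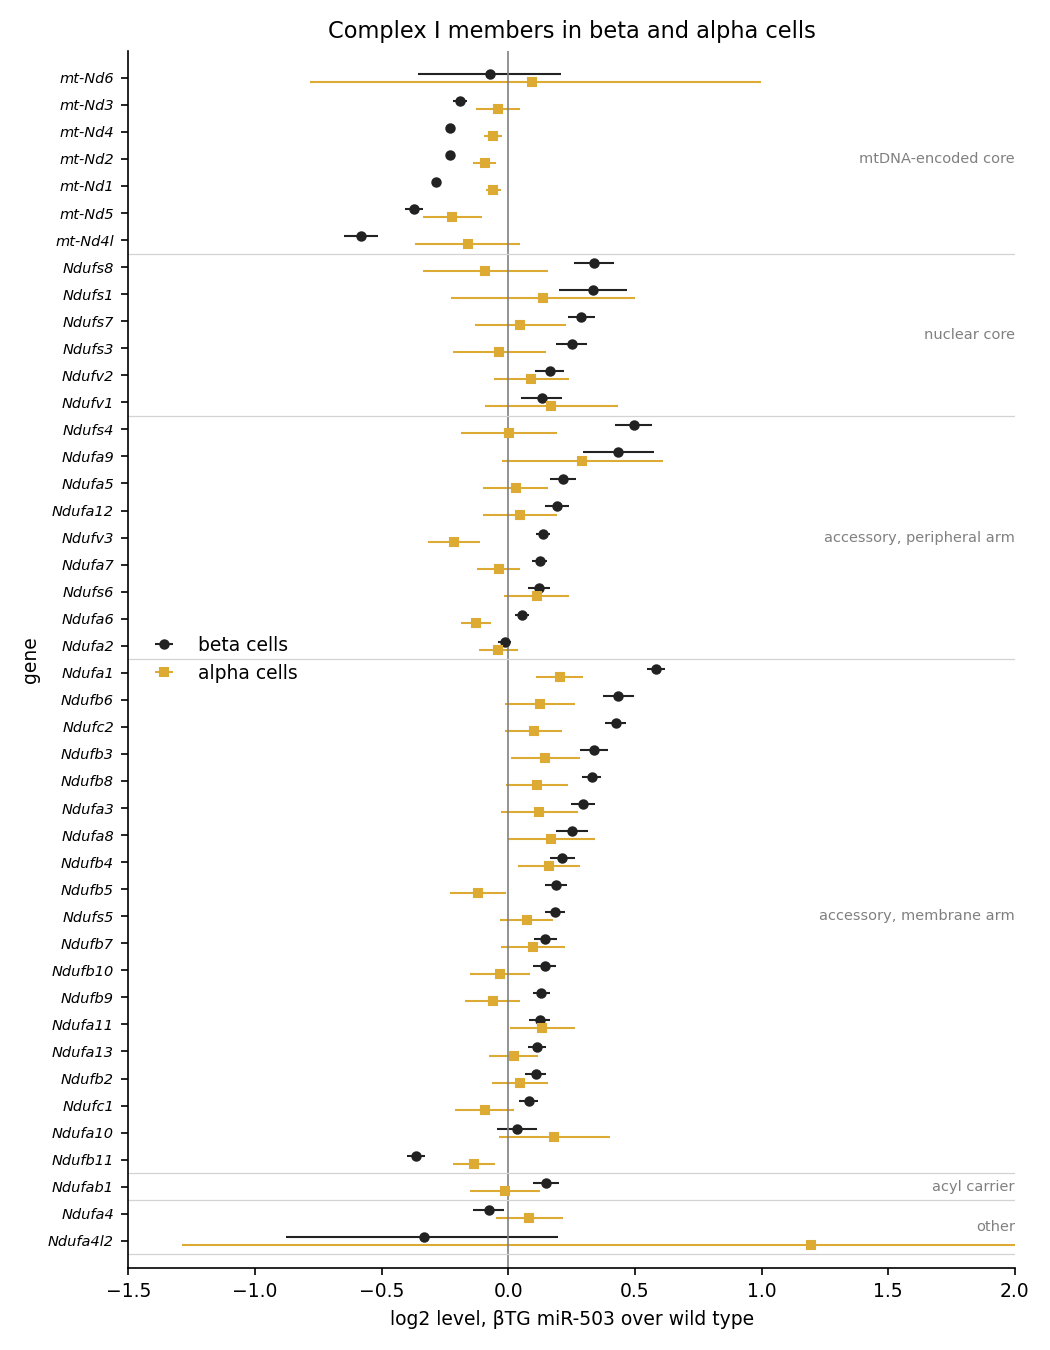
Log2 level of the βTG miR-503 over the wild type library (x axis) for single members (y axis, grouped by role) in beta cells (black circles) and alpha cells (yellow squares), with lines for the 95% counting interval. The 7 mitochondrial genes lie left of 0 in beta cells and most nuclear genes right of it. The alpha interval of Ndufa4l2 runs past the right edge.

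The 6 nuclear core genes described here were higher in transgenic beta cells in 6 of 6 cases, with a median of 0.27. Their sum stood at 346 CPM in wild type and 408 CPM in transgenic cells (0.24, 0.21 to 0.27). In the NADH-oxidising module Ndufs1, the largest iron-sulfur subunit, stood at 14.4 and 18.2 CPM (0.33, 0.20 to 0.47). The flavin-binding Ndufv1 stood at 44.0 and 48.2 CPM (0.13, 0.05 to 0.21) and its partner Ndufv2 at 81.7 and 91.5 CPM (0.16, 0.11 to 0.22). In this module the 3 genes thus lay between 0.13 and 0.33.

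In the ubiquinone-reducing module Ndufs8, which holds iron-sulfur clusters, stood at 41.3 and 52.2 CPM (0.34, 0.26 to 0.42). Ndufs7, which holds the last cluster of the chain, stood at 91.1 and 111 CPM (0.29, 0.23 to 0.34). Ndufs3 stood at 73.1 and 86.9 CPM (0.25, 0.19 to 0.31). The intervals of these 3 overlapped.

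Of the 9 accessory genes of the matrix arm 8 were higher in transgenic beta cells, with a median of 0.14. Ndufs4, a small subunit whose loss in mice is a model of Leigh syndrome, stood at 47.9 and 67.4 CPM (0.49, 0.42 to 0.57). Ndufa9, which supports the ubiquinone site, stood at 12.9 and 17.5 CPM (0.43, 0.29 to 0.57). At the low end Ndufa6 stood at 351 and 364 CPM (0.05, 0.02 to 0.08) and Ndufa2 at 450 and 446 CPM (−0.01, −0.04 to 0.01). This arm thus ran from −0.01 to 0.49.

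Of the 19 accessory genes of the membrane arm 18 were higher in transgenic beta cells, 6 of them by at least 1.2-fold, with a median of 0.18. Ndufa1, needed for assembly of the membrane arm, stood at 184 and 277 CPM (0.58, 0.55 to 0.62). Ndufb6 stood at 68.2 and 92.2 CPM (0.43, 0.37 to 0.49) and Ndufc2 at 139 and 187 CPM (0.42, 0.38 to 0.47). At the low end Ndufc1 stood at 198 and 209 CPM (0.08, 0.04 to 0.12) and Ndufa10 at 46.1 and 47.2 CPM (0.04, −0.04 to 0.11).

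The exception in the membrane arm was Ndufb11, at 264 CPM in wild type and 205 CPM in transgenic beta cells (−0.36, −0.40 to −0.33). It was also lower in alpha cells, at 305 and 278 CPM (−0.13, −0.22 to −0.05). Ndufb11 and Ndufa1 are the X-linked members, at chrX:20615326-20617619 and chrX:37187588-37191163 of GRCm38, and they had opposite signs. Because the libraries differed in the share of cells with Xist, both were measured again in transgenic beta cells without a Xist UMI, per UMI outside the hormone genes. Ndufa1 was then at 0.57 (0.53 to 0.61) and Ndufb11 at −0.38 (−0.42 to −0.34). Rbm10 overlaps Ndufb11 on the opposite strand. The strand setting of the counting is not given in the sources used here, and the value of Ndufb11 may depend on it.

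Among members with a role apart from the rest, Ndufab1, the mitochondrial acyl carrier protein, stood at 102 and 113 CPM in beta cells (0.15, 0.10 to 0.20). Ndufa4, now known as a subunit of complex IV despite its name, stood at 80.4 and 76.2 CPM (−0.08, −0.14 to −0.02). Its relative Ndufa4l2 had 77 and 50 UMIs in beta cells (−0.33, −0.88 to 0.20), too few to show a difference of that size. Without these 2, 34 of 36 nuclear genes were higher in transgenic beta cells. The nuclear members that were not higher were thus Ndufa4, Ndufa4l2, Ndufa2 and Ndufb11.

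The ratio of mt-Nd to nuclear complex I UMIs needs no scaling between libraries. Wild type beta cells had a ratio of 1.56 (1.55 to 1.57) and transgenic beta cells one of 1.16 (1.15 to 1.16), which is 25.9% lower (log2 −0.43, −0.44 to −0.42). In transgenic beta cells without a Xist UMI it was −0.43.

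In the other classes this ratio differed less between the libraries. In alpha cells it was 1.077 and 1.017 (log2 −0.08, −0.11 to −0.05). In delta cells it was 0.815 and 0.717 (−0.19, −0.26 to −0.11), and in gamma cells 1.203 and 1.060 (−0.18, −0.24 to −0.13). The sign was the same in the 4 classes.

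Cell by cell, the median ratio was 1.57 over wild type beta cells and 1.12 over transgenic ones, with the 25th to 75th percentiles from 1.12 to 2.20 and from 0.849 to 1.49. More mt-Nd than nuclear UMIs were found in 81.0% and 60.2% of beta cells, 47.6% and 44.0% of alpha cells, 18.4% and 14.1% of delta cells, and 52.6% and 39.2% of gamma cells. The ranges of the libraries overlapped in each class. Across beta cells of a library, the shares of nuclear and mt-Nd UMIs outside hormones correlated at Pearson's r of −0.28 in wild type (3197 cells) and −0.18 in the transgenic library (2621 cells), a description of cells that share a library and a common denominator.

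**Figure D3:**
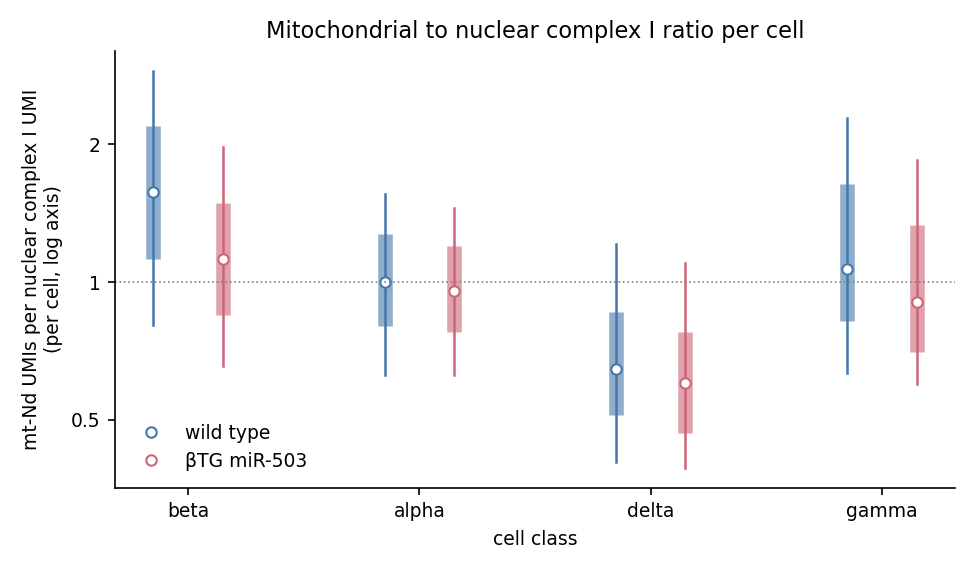
Ratio of mt-Nd to nuclear complex I UMIs per cell (y axis, log scale) by cell class and library, with the median (circle), the range from the 25th to the 75th percentile (thick bar) and from the 10th to the 90th (thin line). The median of transgenic beta cells (1.12) lies below that of wild type beta cells (1.57), and delta cells are lowest at 0.645 and 0.602.

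Insulin content moved with both sets of complex I inside each library. From wild type beta cells with an insulin share of 25 to 40% of UMIs to those with 65 to 100%, the nuclear level went from 6725 to 10969 CPM of the UMIs outside the hormone genes, and the mt-Nd level from 14814 to 10688. In the transgenic library the nuclear level went from 7430 to 10557 and the mt-Nd level from 13141 to 9371. The ratio of mt-Nd to nuclear UMIs went from 2.20 to 0.974 in wild type and from 1.77 to 0.888 in transgenic cells. The median insulin share of a beta cell was 50.4% in wild type and 60.4% in the transgenic library.

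Within bands of insulin share the difference between the libraries in the nuclear sum changed sign and was mostly small. In the band of 25 to 40% its log2 difference was 0.14, near the 0.16 over all beta cells on the same scale. It was 0.04 in the band of 50 to 55% and 0.01 in the band of 55 to 60%. The nuclear sum was lower in transgenic cells in the bands of 40 to 45% (−0.03), 45 to 50% (−0.00), 60 to 65% (−0.09) and 65 to 100% (−0.06). The mt-Nd sum was lower in transgenic cells in 7 of 7 bands, by −0.19 to −0.06. The ratio was lower in 6 of 7 bands, from −0.32 to −0.10, and higher in the band of 60 to 65%, at 0.04 (0.01 to 0.06). The lowest band held 59 and the next 76 transgenic cells.

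Over beta cells with an insulin share of 40 to 60%, the nuclear sum differed by 0.02, the mt-Nd sum by −0.21 and the ratio by −0.22. Of the nuclear members 23 were higher and 15 lower, 60.5% higher against 47.9% of all genes in the same cells, and 3 were higher by at least 1.2-fold (7.89% against 13.4%). Among these were Ndufa1 at 0.38 (0.33 to 0.43) and Ndufs1 at 0.27 (0.09 to 0.45). By that fold 2 were lower (5.26% against 13.6%), Ndufa4l2 and Ndufb11, the second at −0.41 (−0.45 to −0.36), and 7 of 7 mt-Nd genes were lower. The interval of mt-Nd6, at −0.27 (−0.66 to 0.12), spanned 0. The libraries were not matched inside this window, since its band of 55 to 60% held 529 wild type and 624 transgenic cells and its band of 45 to 50% held 635 and 170. In the 4 bands of the window the mt-Nd sum differed by −0.14 to −0.10. These band values are per UMI outside the hormone genes, while the −0.21 of the window is on the TMM scale. The ratio, which needs no scaling, differed by −0.17 to −0.10 in the bands, closer to 0 than over the window as a whole.

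**Figure D4:**
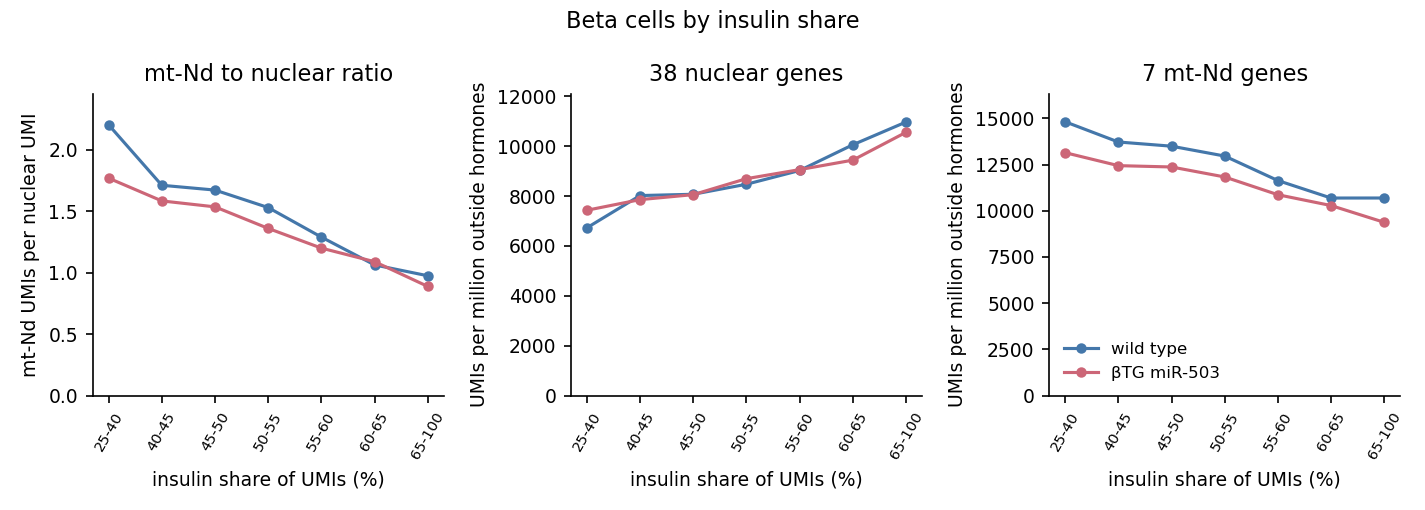
Beta cells in 7 bands of insulin share (x axis, percent of UMIs): the ratio of mt-Nd to nuclear UMIs, and the levels of the nuclear and the mt-Nd genes (y axes, CPM of UMIs outside the hormone genes, from 0), in the wild type (blue) and βTG miR-503 (red) libraries. The nuclear lines of the libraries cross: the transgenic line is higher at 25 to 40% (7430 against 6725) and lower at 60 to 65% (9440 against 10056). The mt-Nd line of the transgenic library lies below in 7 of 7 bands.

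Bands of depth gave another view of the ratio. Over 6 bands of UMIs outside the hormone genes, from cells under 8000 to cells with 17000 or more, the log2 difference of the ratio ran from −0.64 to −0.22 and was lower in transgenic cells in each. The nuclear sum was higher by 0.08 to 0.19. These bands were not matched for insulin share, which was not measured within them.

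Outside beta cells the nuclear members were mixed. In alpha cells 25 of the 37 members with at least 50 UMIs were higher and 12 lower (median 0.07), where 50% of all genes were higher. In delta cells 24 of 36 were higher (median 0.13) against 51.3% of all genes, and in gamma cells 26 of 37 (median 0.09) against 49.1%. By at least 1.2-fold 2 were higher in alpha cells, against 17.3% of all genes, Ndufa9 at 0.29 (−0.03 to 0.61) among them, and 0 were lower by that fold, against 16.5%. In delta cells 7 and in gamma cells 8 were higher by that fold, against 20.3% and 19.5%, and 1 in each was lower, against 19.2% and 22.7%.

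The mt-Nd genes with at least 50 UMIs were lower in 6 of 6 cases in alpha, delta and gamma cells, against 50%, 48.7% and 50.9% of all genes. In alpha cells mt-Nd5 was the lowest at −0.22 (−0.34 to −0.10). In delta cells it stood at 118 and 86.1 CPM (−0.45, −0.80 to −0.11). In gamma cells mt-Nd4l stood at 56.5 and 35.8 CPM, from 143 and 66 UMIs (−0.66, −1.10 to −0.23). The mt-Nd6 gene had 4 and 2 UMIs in delta cells and 8 and 4 in gamma cells, too few for a comparison.

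Between classes of the same library, beta cells had the highest mt-Nd level. In the wild type library the mt-Nd sum of beta cells was 1.46-fold that of alpha cells, 2.37-fold that of delta cells and 1.57-fold that of gamma cells, and in the transgenic library 1.28-fold, 2.17-fold and 1.44-fold. The nuclear sum of beta cells was 1.01-fold that of alpha cells in wild type (log2 0.01, −0.01 to 0.03) and 1.13-fold in the transgenic library. It was 1.24-fold and 1.35-fold that of delta cells, and 1.21-fold and 1.32-fold that of gamma cells. Delta cells had the lowest mt-Nd level. The order of the nuclear levels of delta and gamma cells depended on the scaling: delta cells were lower on the TMM scale, with overlapping counting intervals in wild type (4290 and 4392 CPM), and higher per UMI outside the hormone genes, at 7569 against 6763 CPM in wild type and 7869 against 7026 CPM in the transgenic library.

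Single nuclear members differed far more between beta and alpha cells than their sum. In the wild type library 20 of 38 were higher in beta than in alpha cells and 18 lower, with a median log2 difference of 0.04. Ndufa6 was lower in beta cells, at 351 against 607 CPM (−0.79, −0.84 to −0.74), and Ndufv3, an accessory subunit beside the flavin site, was higher, at 340 against 208 CPM (0.71, 0.63 to 0.79). In the transgenic library the same genes stood at −0.61 and 1.06. The 7 mt-Nd genes were higher in beta cells in 7 of 7 cases in both libraries, from 0.37 to 0.85 in wild type, although the interval of mt-Nd6 spanned 0 in both. No share of all genes stands beside these counts of members higher in beta than in alpha cells. Ndufa6 and Ndufv3 were named after their values were seen.

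Other genes of the pathway did not all follow the subunits. The background for the counts below is the 50.6% of all genes with at least 50 UMIs that were higher in transgenic beta cells. Of 14 measured assembly factors of complex I, 10 were higher and 4 lower in transgenic beta cells (median 0.05). By at least 1.2-fold 2 of the 14 were higher, a share below the 17.9% of all genes, namely Tmem126b at 0.42 (0.28 to 0.57) and Ndufaf7 at 0.37 (0.20 to 0.53), and 0 were lower. Of 77 genes of the mitochondrial ribosome, which translates the mt-Nd messages, 70 were higher, with a median of 0.17. Of 20 genes that copy, transcribe or stabilise mitochondrial DNA and RNA, 14 were higher and 6 lower (median 0.12). By at least 1.2-fold 4 of the 20 were higher, against 17.9% of all genes, namely Fastkd5 at 0.63 (0.09 to 1.19), Ssbp1 at 0.33, Mtpap at 0.32 and Fastkd2 at 0.29. The 2 that were lower by that fold, against 15.8% of all genes, were Lrpprc, which stabilises mitochondrial messenger RNA, at 30.2 and 20.3 CPM (−0.58, −0.69 to −0.47), and the DNA polymerase gene Polg at 10.9 and 8.99 CPM (−0.28, −0.46 to −0.11). The partner of Lrpprc, Slirp, stood at 83.8 and 91.3 CPM in beta cells (0.12, 0.07 to 0.18). The lower level of Lrpprc was not confined to beta cells. It stood at 47.8 and 30.1 CPM in alpha cells (−0.67) and at 76.3 and 49.4 CPM in gamma cells (−0.63), with both counting intervals below 0. The mt-Nd sums of alpha and gamma cells differed by only −0.07 and −0.13. Whether Lrpprc had a part in the mt-Nd levels was not tested.

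Of 8 nuclear regulators 3 were higher and 5 lower in transgenic beta cells (median −0.04), against 50.6% and 49.4% of all genes. Nrf1, whose motif is printed above, stood at 17.1 and 12.8 CPM (−0.42, −0.56 to −0.28). The coactivator Ppargc1a stood at 17.19 and 12.04 CPM (−0.51, −0.66 to −0.37). In alpha cells Ppargc1a had the opposite sign, at 0.79 (0.46 to 1.13), and Nrf1 stood at −0.21 (−0.62 to 0.20). Gabpa stood at 7.31 and 8.71 CPM in beta cells (0.25, 0.06 to 0.45). By at least 1.2-fold 2 of the 8, Nrf1 and Ppargc1a, were lower in beta cells, against 15.8% of all genes, and 0 were higher.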

How the data were processed

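Reads of 10x Chromium 3′ version 2 libraries were aligned to the build mm10 (Cell Ranger 2.1.0, STAR 2.5.1b), per the submitters' processing notes. The authors deposited unnormalized counts, 1 whole number of UMIs for each gene in each cell. The sources used here name no annotation release and no rule by which barcodes were kept. The wild type matrix held 4540 barcodes and 104677537 UMIs, the transgenic matrix 4158 and 109243270.

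Cells with at least 500 genes, 1000 UMIs and at most 10% mitochondrial UMIs were kept. Scrublet's automatic threshold marked 2 and 8 cells, too few to be used, so the top 4% of its scores were removed per library (181 and 166 cells). This left 4339 and 3977 cells with medians of 21499 and 24571 UMIs. UMIs were summed per class and library and scaled by TMM over the 8 sums (edgeR 4.0.16 in R 4.3.3). These CPM are comparable between sums but are not shares of a library, since insulin fills much of the beta sums. Ratios carry exact conditional binomial intervals, levels exact Poisson intervals, and ratios of ratios delta-method intervals. The ratio of a gene between libraries and its interval were tried on simulated Poisson counts of beta cells. Those counts held no variation between cells or libraries, so the trial could not check the intervals beyond counting error. The delta-method intervals were not part of it. Alternatives were total UMIs, UMIs outside Ins1, Ins2, Gcg, Sst and Ppy, TMM per class, DESeq2 1.42.0 size factors, other cell filters, class rules, depth and insulin bands, and equal weight per cell. Python 3.11.15, scanpy 1.11.5, scipy 1.17.1 and matplotlib 3.10.9 were used.

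Named were the mt-Nd genes, nuclear core genes, the 6 highest and 6 lowest nuclear ratios in beta cells with at least 100 UMIs, Ndufa4, Ndufa4l2 and Ndufab1. Ndufc1, next above the 6 lowest, was named in beta cells outside these rules. A member that these rules choose is not reported here, but stays in the counts and sums over all nuclear genes. The members, lists and rules were chosen with earlier results of these data known. Genes named from the pathway lists, Ndufa6 and Ndufv3 where set against alpha cells and the measures of Xist were chosen after their values were seen. Gene positions came from a GENCODE annotation of GRCm38.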

Additional observations from a re-analysis of the deposited data

Results flagged for a closer look

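For 5 nuclear members the log2 difference between the libraries had one sign in beta cells and the opposite sign in another class, with each counting interval on its own side of 0. The differences between classes were not tested, since each class is 1 sum per library. Ndufb5, a membrane-arm subunit, stood at 0.1885 in beta and −0.1188 in alpha cells. Ndufa6 stood at 0.0532 in beta and −0.1265 in alpha cells. Ndufv3 stood at 0.1380 in beta, −0.2138 in alpha and −0.3001 in gamma cells. Ndufc1 stood at 0.0813 in beta and −0.4424 in delta cells. The complex IV subunit Ndufa4 had the reverse order, at −0.0775 in beta and 0.4107 in delta cells. The delta values rest on 76 and 99 cells.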

How the results depend on the processing

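Apart from the bands of insulin share, the nuclear sum changed sign in 6 cases, 3 of them in alpha cells, whose interval spanned 0 from the start. Per total UMIs the nuclear log2 difference was −0.1534 in beta and −0.1748 in gamma cells, and with stricter hormone shares it was −0.0050 in delta cells. The stricter shares left 116 wild type and 192 transgenic delta cells, more than the main rules did. Total UMIs also gave −0.0147 in alpha cells, mt-Nd differences of −0.5866 in beta, −0.0967 in alpha and −0.3564 in gamma cells, and 10 nuclear members higher in beta and 9 in gamma cells. The mt-Nd to nuclear ratio in beta cells was lower in the transgenic library under each alternative scaling, filter, class rule, window and weighting printed here, from −0.4482 to −0.2232. The narrow bands went beyond that range. In the insulin band of 60 to 65% the ratio was higher, at 0.0351, and in the other insulin bands it ran from −0.3166 to −0.1040. In the bands of depth it ran from −0.6423 to −0.2182.

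In beta cells the nuclear sum, the mt-Nd sum and, where it moved, their ratio were 0.1556 and −0.2776 per UMI outside the hormones, 0.1546 and −0.2786 with TMM per class, 0.1135, −0.1809 and −0.2944 at a mitochondrial maximum of 5%, 0.1118, −0.2658 and −0.3776 with stricter hormone shares, 0.1258, −0.2693 and −0.3951 in cells of 15000 to 30000 UMIs, 0.0176, −0.2055 and −0.2232 at an insulin share of 40% to 60%, and 0.1572, −0.2911 and −0.4482 with equal weight per cell. Alternatives added after seeing the data gave 0.1396 and −0.2886 with cells of more than 1 rule counted in each class. In alpha cells stricter shares gave a nuclear sum of −0.0282 and a ratio of −0.0418, the depth window an mt-Nd sum of −0.0466, and cells of more than 1 rule a nuclear sum of −0.0077 and an mt-Nd sum of −0.0914. In gamma cells stricter shares gave 0.1100 and a ratio of −0.2666, the depth window 0.1373, −0.2027 and −0.3400, and cells of more than 1 rule an mt-Nd sum of −0.2547 and a ratio of −0.2946. For beta over alpha and beta over delta, levels per UMI outside the hormones gave nuclear values of 0.1904 and 0.1385 in wild type and 0.3189 and 0.2380 in transgenic cells, and mt-Nd values of 0.7260 and 1.0753, and 0.5032 and 0.9277, with 0.6771 over gamma cells in wild type. The cause of these moves was not tested.

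The depth window was not run for delta cells, which had fewer than 50 there. Sums of few cells limit delta and gamma values. No paired analysis was possible because each genotype has 1 library.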
